A study of Mus musculus with 8 samples.

Results

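The data described here are the liver levels of 10 genes that mark macrophages, above all Kupffer cells, the macrophages that reside in the liver: Mpeg1, C1qa, C1qb, C1qc, Vsig4, Marco, Cd5l, Cd68, Clec4f and Adgre1. A gene was represented by probe sets of the mouse Affymetrix array that the array annotation assigned to that symbol alone. All 10 were measured, with 12 of the 22690 probe sets in the table, and they were tested among 12393 genes. Where a gene had more than 1 probe set, which applied to C1qb alone, the probe set with the highest mean over the 8 arrays was used and the others served as a check. Levels are on a log scale read as log2, so that a difference of 1 is a 2-fold change. Probe sets differ in affinity, so levels are compared between arrays for the same gene and not between genes.

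The liver RNA came from mice of 4 genotypes on a C57BL background, each with 2 arrays and all kept on standard chow. The OB-/-/SHP-/- mice lacked both leptin and SHP, the OB-/- mice lacked leptin, the SHP-/- mice lacked SHP, and wild-type mice lacked neither. Leptin is the adipose hormone whose loss makes mice overeat and become obese, and SHP, the product of Nr0b2, is an orphan nuclear receptor that cannot bind DNA itself and acts as a corepressor, best known for holding down bile acid synthesis in hepatocytes. The labels used here give neither age nor sex, and they do not tell whether both arrays of a genotype hold RNA of different animals. The p-values therefore reflect only how far these samples differ, and that spread may be technical.

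Kupffer cells line the liver sinusoids, where they take up bacteria, dead cells and modified lipoproteins from the blood. They recognise these through scavenger receptors such as Marco and through complement receptors such as Vsig4. Unlike most complement proteins, which hepatocytes make, the C1q chains are made largely by macrophages. The genes are given in this order: the pore protein gene Mpeg1, the 3 C1q chains, the complement receptor Vsig4, the scavenger genes Marco, Cd5l and Cd68, and the surface proteins Clec4f and Adgre1.

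Some facts of the whole series touch these results. The gene targeted in SHP-/- mice, Nr0b2, had levels of 7.11 and 6.66 in OB-/-/SHP-/- livers, 8.01 and 8.01 in OB-/- livers, 7.78 and 8.31 in SHP-/- livers, and 8.74 and 8.71 in wild-type livers, so it was still read on the SHP-/- arrays. Whether its probe set lies in the deleted part is not known here. Lep, which liver hardly expresses, was at 3.16 to 3.53 on all arrays and checks no label. The array OB-/- replicate 1 stood apart in Xist, at 7.41 against 4.31 to 4.70 on the other arrays. The Y-linked gene Eif2s3y was read on every array, at 6.57 to 7.50, and was at 6.99 on OB-/- replicate 1. SHP-/- replicate 1 stood apart in the immediate early gene Fos, at 11.95 against 6.98 in SHP-/- replicate 2. RNA probed at 3' and 5' ends also moved with genotype: the 3' minus 5' difference for Gapdh was 0.03 and 0.11 in OB-/-/SHP-/-, -0.07 and -0.01 in OB-/-, 0.19 and 0.35 in SHP-/-, and 0.79 and 1.00 in wild-type livers. The same difference for Actb was 0.77 to 0.93 over the 4 arrays without leptin, 1.25 and 1.35 in SHP-/- and 1.89 and 1.87 in wild-type livers. Wild-type livers thus had the largest end difference and, as follows, the lowest marker levels, and the part of this in the results was not tested.

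Wild-type livers had the lowest mean of all 10 markers, and every marker was lowest of all on a wild-type array. The mean over the 10 markers was 8.01 and 8.31 in OB-/-/SHP-/-, 7.78 and 7.84 in OB-/-, 7.71 and 7.03 in SHP-/-, and 6.46 and 6.32 in wild-type livers. OB-/-/SHP-/- livers had the highest mean for 6 markers (Mpeg1, the 3 C1q chains, Marco and Adgre1), and OB-/- livers for the other 4 (Vsig4, Cd5l, Cd68 and Clec4f). In whole liver, a larger number of macrophages and more of these RNAs per macrophage cannot be told apart.

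**Figure D1:**
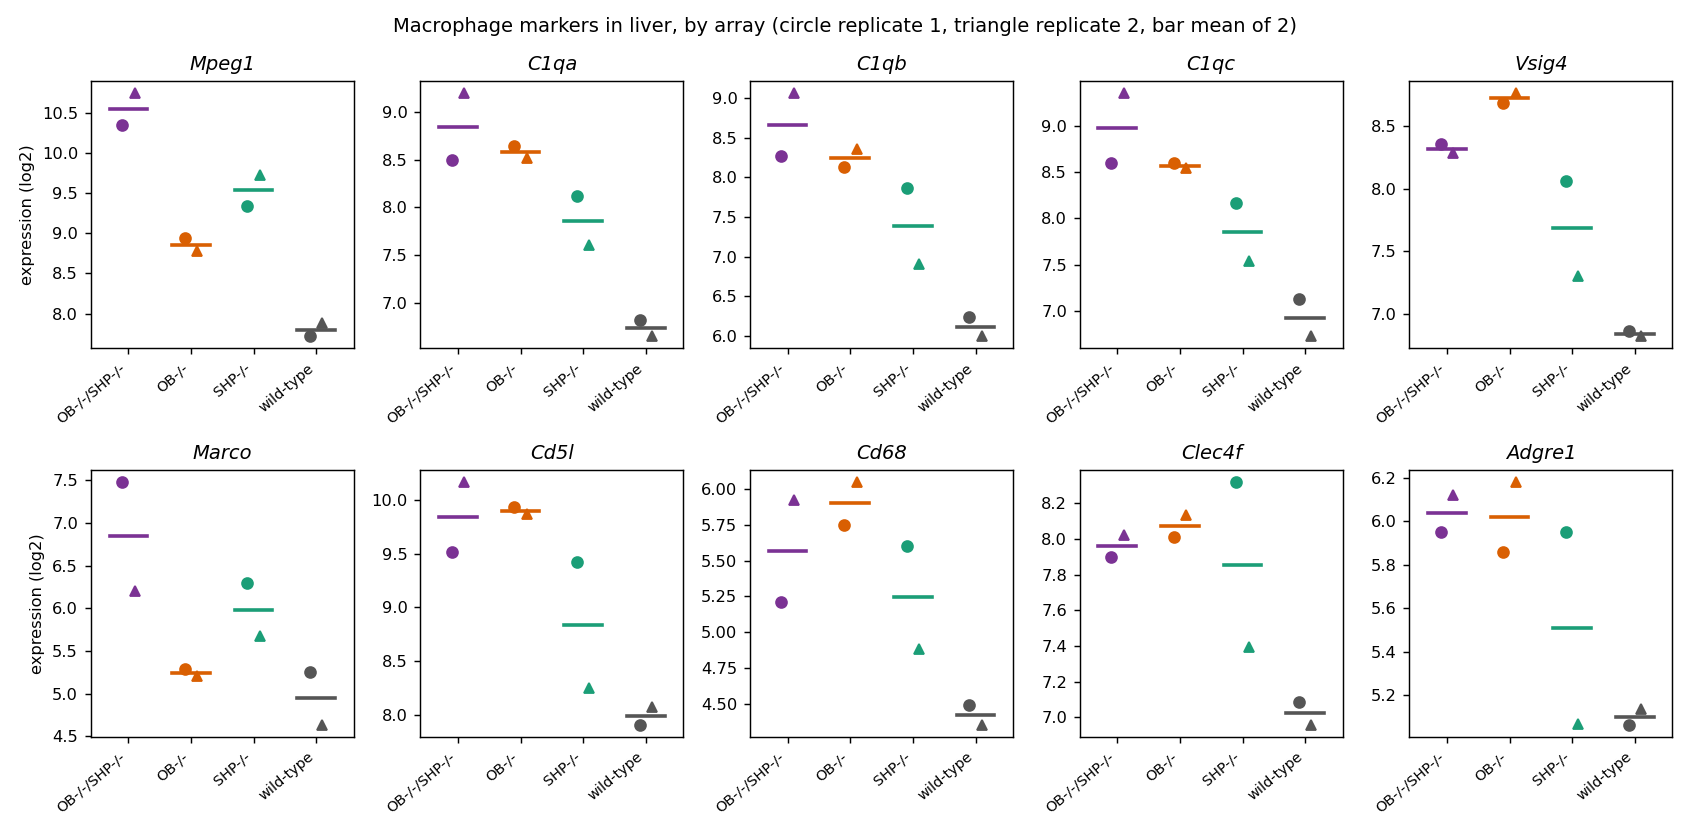
Expression (log2) of each of the 10 markers on each of the 8 arrays, by genotype, with circles for replicate 1, triangles for replicate 2 and bars for the mean of the 2 arrays. Both wild-type arrays sit below all others for 8 of the 10 genes. For Marco, OB-/- replicate 2 lies between them, and for Adgre1, SHP-/- replicate 2 does. Mpeg1 shows 4 separate levels, with OB-/-/SHP-/- highest at 10.36 and 10.75, whereas Vsig4, Cd5l, Cd68 and Clec4f have their highest mean in OB-/- livers.

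The 250 bases before the start of 8 of the 10 genes were in the RefSeq promoter table (GRCm38.p6), and C1qa and Adgre1 were not. The promoters of 5 genes are printed here 5' to 3' on the gene's strand. The genes were picked as follows: Mpeg1 and Marco passed the test for SHP loss in mice without leptin, C1qb and C1qc are neighbours with like levels, and Vsig4 was highest in OB-/- livers. A link between these sequences and the levels was not tested. Capitals mark matches to the letters searched on either strand: GAGGAA, of the kind the macrophage factor PU.1 binds, and AGGTCA, of the kind nuclear receptors bind.
Mpeg1, chr19:12460520-12460769, plus strand: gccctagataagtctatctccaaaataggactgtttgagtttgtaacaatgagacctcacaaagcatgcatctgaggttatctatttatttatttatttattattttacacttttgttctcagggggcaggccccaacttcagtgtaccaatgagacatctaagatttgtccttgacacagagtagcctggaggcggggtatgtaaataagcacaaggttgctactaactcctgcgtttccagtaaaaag
Marco, chr1:120505025-120505274, minus strand: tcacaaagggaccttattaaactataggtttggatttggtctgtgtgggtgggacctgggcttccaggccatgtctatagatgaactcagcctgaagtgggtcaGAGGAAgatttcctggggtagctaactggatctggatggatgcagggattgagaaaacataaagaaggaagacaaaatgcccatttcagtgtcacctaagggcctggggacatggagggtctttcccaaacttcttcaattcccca
C1qb, chr4:136886201-136886450, minus strand: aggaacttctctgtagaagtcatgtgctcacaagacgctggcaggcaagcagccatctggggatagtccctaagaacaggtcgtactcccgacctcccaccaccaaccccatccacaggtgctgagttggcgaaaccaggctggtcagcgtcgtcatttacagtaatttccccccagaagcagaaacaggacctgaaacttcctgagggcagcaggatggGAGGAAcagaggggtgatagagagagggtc
C1qc, chr4:136892915-136893164, minus strand: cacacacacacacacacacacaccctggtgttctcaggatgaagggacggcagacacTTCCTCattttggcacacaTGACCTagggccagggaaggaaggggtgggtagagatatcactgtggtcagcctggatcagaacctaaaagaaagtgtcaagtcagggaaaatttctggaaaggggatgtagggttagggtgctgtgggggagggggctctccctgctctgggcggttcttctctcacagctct
Vsig4, chrX:96293439-96293688, minus strand: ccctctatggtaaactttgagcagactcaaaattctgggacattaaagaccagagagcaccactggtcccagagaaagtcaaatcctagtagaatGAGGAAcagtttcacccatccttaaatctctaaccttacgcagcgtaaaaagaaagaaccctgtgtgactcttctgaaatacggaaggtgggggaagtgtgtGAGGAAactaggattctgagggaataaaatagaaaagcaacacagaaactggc
GAGGAA was found in 6 of the 8 promoters (C1qb, C1qc, Vsig4, Marco, Cd5l and Cd68) and in 23.3% of 32851 promoters of the same length. Counted back from the start, it lay at -30 in C1qb, at -146 in Marco, and at -155 and -53 in Vsig4. AGGTCA was found in C1qc and Clec4f, and in 14% of all promoters. TGAGTCA, of the AP-1 kind, was found in Cd68 and in 4.46% of all. The interferon response element and the gamma activation site TTCNNNGAA, both of the interferon kind, were found in none of the 8, against 2.98% and 7.02% of all. Mpeg1 had no match to any of the 5. These are matches of letters alone, and no 2 matches overlap in the printed stretches.

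Mpeg1 encodes perforin-2, a pore-forming protein that macrophages use against engulfed bacteria. It read 10.36 and 10.75 in OB-/-/SHP-/- livers, 8.94 and 8.78 in OB-/- livers, 9.34 and 9.73 in SHP-/- livers, and 7.72 and 7.88 in wild-type livers. No genotypes overlapped, and the order was OB-/-/SHP-/-, SHP-/-, OB-/- and wild-type. Loss of SHP came with a rise of Mpeg1 of similar size with and without leptin. In mice without leptin the difference was 1.70 ± 0.18 (moderated SE, n = 2 arrays each), a 3.24-fold rise with an adjusted p of 0.000347 in limma. In mice with leptin it was 1.74 ± 0.18, a 3.33-fold rise with an adjusted p of 0.00173 in limma. The interaction, which is the difference between these, was -0.04 with a 95% interval of -0.59 to 0.51.

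The C1q chains form the molecule that starts the classical complement pathway on antibody-coated or dying cells, and their genes lie next to each other on chromosome 4, in the order C1qb, C1qc, C1qa with no annotated gene between them. C1qb read 8.27 and 9.06 in OB-/-/SHP-/-, 8.14 and 8.36 in OB-/-, 7.86 and 6.91 in SHP-/-, and 6.24 and 5.99 in wild-type livers. OB-/-/SHP-/- and OB-/- livers overlapped, and both lay above SHP-/- livers, which lay above wild-type. C1qa read 8.49 and 9.19, 8.64 and 8.51, 8.12 and 7.60, and 6.82 and 6.65 in the same 4 genotypes, and C1qc read 8.60 and 9.35, 8.60 and 8.54, 8.16 and 7.54, and 7.13 and 6.73. The 3 genes kept the same order of genotype means, with OB-/-/SHP-/- first. Both check probe sets of C1qb moved the same way as the one used, with smaller differences of 1.12 and 1.65 between OB-/- and wild-type livers against 2.13 for the one used.

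Vsig4, the complement receptor that binds C3b, read 8.36 and 8.28 in OB-/-/SHP-/-, 8.69 and 8.76 in OB-/-, 8.06 and 7.30 in SHP-/-, and 6.86 and 6.82 in wild-type livers. Its OB-/- arrays were the highest, and no genotypes overlapped. Marco, a scavenger receptor for bacteria and particles, had another order. It read 7.48 and 6.21 in OB-/-/SHP-/- livers, 5.29 and 5.20 in OB-/- livers, 6.29 and 5.67 in SHP-/- livers, and 5.25 and 4.63 in wild-type livers. The OB-/- and wild-type arrays overlapped, so that the 4 SHP-deficient arrays were the high ones.

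Cd5l is a secreted protein of macrophages that binds lipid and microbial surfaces. It read 9.52 and 10.17 in OB-/-/SHP-/-, 9.93 and 9.86 in OB-/-, 9.42 and 8.25 in SHP-/-, and 7.91 and 8.08 in wild-type livers. Cd68, a lysosomal glycoprotein of macrophages, read 5.21 and 5.92, 5.75 and 6.05, 5.60 and 4.88, and 4.49 and 4.35 in the same genotypes. For both genes the OB-/-/SHP-/- arrays overlapped those of OB-/- mice, and every array of the 3 mutant genotypes lay above both wild-type arrays.

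Clec4f, a lectin that in mouse is specific to Kupffer cells, read 7.90 and 8.02 in OB-/-/SHP-/-, 8.01 and 8.13 in OB-/-, 8.32 and 7.39 in SHP-/-, and 7.09 and 6.96 in wild-type livers. Adgre1, which encodes the surface antigen F4/80, read 5.95 and 6.12, 5.86 and 6.18, 5.95 and 5.07, and 5.07 and 5.14 in the same genotypes. The 4 arrays without leptin were close together for both genes, and for Adgre1 the SHP-/- and wild-type arrays overlapped.

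When SHP-/- livers were compared with wild-type livers, 1 of the 10 markers, Mpeg1, passed the threshold of an adjusted p below 0.05 in limma. Over all genes 0.226% rose and 0.323% changed in either direction. All 10 differences were positive, with a median of 0.88 against -0.026 over all genes, and the range was 0.41 for Adgre1 to 1.74 for Mpeg1. Both SHP-/- arrays lay above both wild-type arrays for 9 markers, against 14.7% of all genes, and 9 markers had an unadjusted p below 0.05, against 7.12% of all genes. C1qb was next in size, at 1.27 ± 0.30 with an adjusted p of 0.152 in limma. The Mpeg1 call was lost without wild-type replicate 1, with an adjusted p of 0.0668 in limma, and without SHP-/- replicate 2 the count was 6 markers, against 0.767% of all genes.

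Loss of SHP in mice without leptin, read as OB-/-/SHP-/- against OB-/- livers, came with a rise of 2 markers, Mpeg1 and Marco. Over all genes 1.26% rose and 2.14% changed in either direction. Marco was higher by 1.60 ± 0.35, a 3.03-fold rise with an adjusted p of 0.0415 in limma. The median of the 10 was 0.14 against 0.0105 over all genes, and 3 markers (Mpeg1, Marco and C1qc) had both arrays above, against 21% of all genes. Vsig4 had both arrays below, as did 19.1% of all genes, at -0.41 ± 0.20 with an adjusted p of 0.489 in limma. Marco lost its call without any 1 of 5 arrays, namely OB-/-/SHP-/- replicate 1 (adjusted p 0.139 in limma), OB-/- replicate 1 or 2 (0.216 or 0.295) and wild-type replicate 1 or 2 (0.0733 each), whereas Mpeg1 kept its call in all 8 such fits.

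Leptin loss in mice with SHP, read as OB-/- against wild-type livers, came with a rise of 9 markers, and Marco did not pass, at 0.30 ± 0.35 with an adjusted p of 0.638 in limma. Over all genes 7.58% rose and 16.9% changed in either direction. The same 9 had both OB-/- arrays above both wild-type arrays, against 27.5% of all genes, and an unadjusted p below 0.05, against 29.4%. The largest difference was that of C1qb, 2.13 ± 0.30 or 4.39-fold with an adjusted p of 0.000744 in limma. Next came Cd5l at 1.91, Vsig4 at 1.88, C1qa at 1.84, C1qc at 1.64 and Cd68 at 1.48, then Mpeg1 at 1.06, Clec4f at 1.05 and Adgre1 at 0.92. The median was 1.56 against -0.00847 over all genes. Clec4f and Adgre1 lost their calls without any 1 of the 4 arrays compared, with adjusted p up to 0.0851 and 0.163 in limma, and the other 7 kept theirs in all 8 fits.

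Leptin loss in mice without SHP, read as OB-/-/SHP-/- against SHP-/- livers, came with a rise of 4 markers, where 4.95% of all genes rose and 10.6% changed in either direction. There were 7 markers with both arrays above, against 29.3% of all genes, and 8 with an unadjusted p below 0.05, against 25.7%. They were C1qb at 1.28 ± 0.30, C1qc at 1.12 ± 0.26, Mpeg1 at 1.02 ± 0.18 and C1qa at 0.98 ± 0.23, with adjusted p of 0.021, 0.0191, 0.00477 and 0.02 in limma. The median of all 10 was 0.92 against 0.033 over all genes, and Clec4f differed least, at 0.10 with a 95% interval of -0.42 to 0.62. The C1q calls were lost without OB-/-/SHP-/- replicate 2 or without SHP-/- replicate 2, and without SHP-/- replicate 1 the count was 7. The count without OB-/-/SHP-/- replicate 2 was 2, and without SHP-/- replicate 2 it was 1, Mpeg1.

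With both genes lost, OB-/-/SHP-/- against wild-type livers, all 10 markers rose, where 7.6% of all genes rose and 15.9% changed in either direction. All 10 had both arrays above, against 27.9% of all genes, and an unadjusted p below 0.05, against 29.5%. Mpeg1 differed most, by 2.76 ± 0.18 or 6.75-fold with an adjusted p of 3.25e-06 in limma. C1qb followed at 2.55, C1qa at 2.11, C1qc at 2.05, Marco at 1.90, Cd5l at 1.85, Vsig4 at 1.47 and Cd68 at 1.15, with Clec4f and Adgre1 both at 0.94. The median was 1.88 against 0.000437 over all genes. Marco, Cd68, Clec4f and Adgre1 lost their calls without wild-type replicate 2.

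The comparisons above share arrays, so their values are not independent of each other. Whether SHP loss acts alike with and without leptin is the interaction, in which no marker passed in limma, where 0.549% of all genes did. The markers had 9 of 10 values below 0, with a median of -0.85 against 0.0365 over all genes, and 4 (C1qa, Vsig4, Cd68 and Clec4f) had an unadjusted p below 0.05, against 8.28% of all genes. Vsig4 was at -1.25 ± 0.29 with an adjusted p of 0.124 in limma, and Marco was the exception in sign at 0.56. Without SHP-/- replicate 2, Vsig4, Cd5l and Clec4f passed, at -1.62, -1.49 and -1.41. A difference in the SHP effect between leptin states was thus not called with all arrays for any of the 10, and the intervals are wide.

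**Figure D2:**
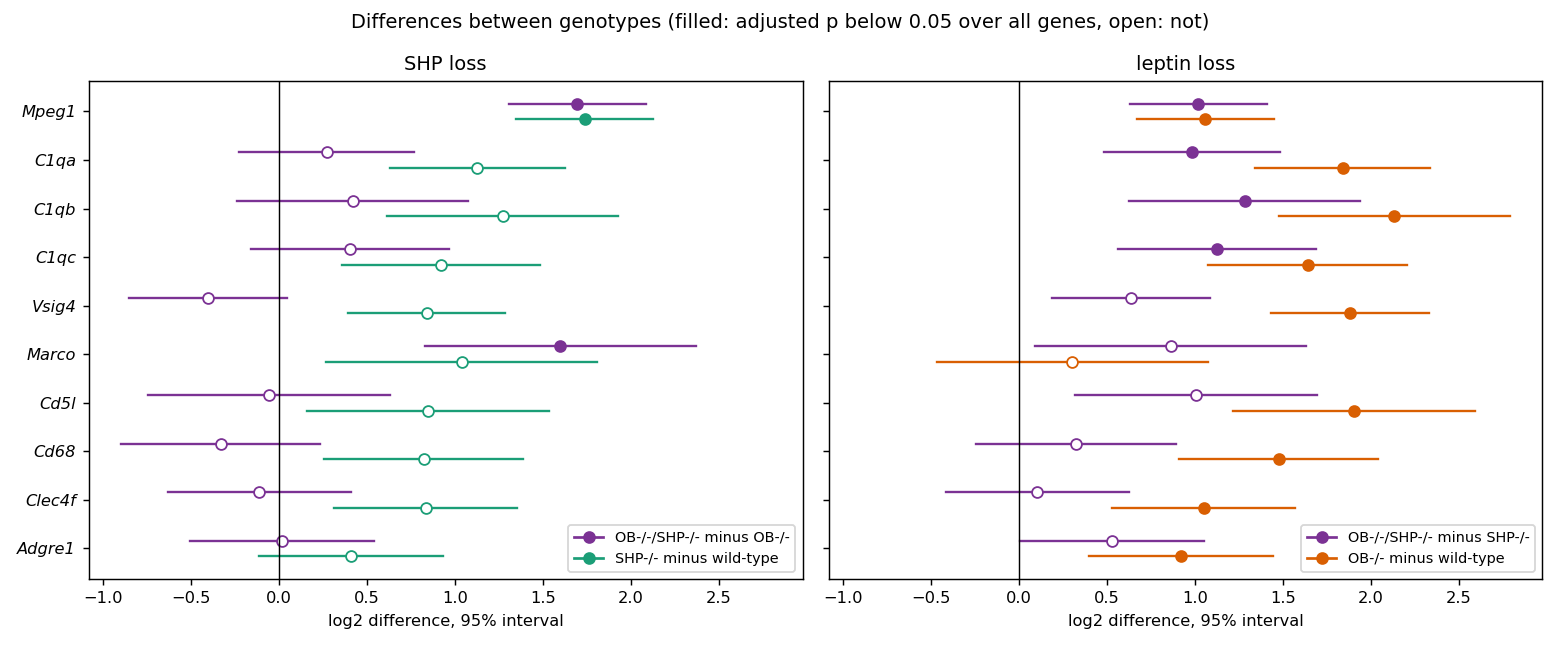
Log2 differences between genotypes for the 10 markers, with 95% intervals, filled where the adjusted p over all genes was below 0.05 and open otherwise. Mpeg1 is filled in every comparison shown for both SHP and leptin loss, and Marco is near 0 for leptin loss in mice with SHP, at 0.30.

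The 2 arrays of SHP-/- livers differed from each other in these genes. Of the 10 markers, 9 were higher in SHP-/- replicate 1, by a median of 0.74 over the 10, whereas over all genes the median size of the gap was 0.145 and 45.3% were higher in replicate 1. Mpeg1 went the other way, with a gap of -0.39. The neutrophil genes S100a8 and S100a9 were also higher in that array, at 6.80 against 5.46 for S100a8 and 8.03 against 6.14 for S100a9, as was Fos. Between the OB-/-/SHP-/- arrays, 2 of 10 markers were higher in replicate 1, Marco by 1.27 and Vsig4 by 0.07. The part of these array differences in the results was not tested. Leaving out both SHP-/- replicate 1 and OB-/- replicate 1, the array that stood apart in Xist, gave 1, 1, 9, 6 and 10 markers called in the 5 comparisons in the order above, and 0 in the interaction. Mpeg1 was not among the 6 of OB-/-/SHP-/- against SHP-/- livers, with an adjusted p of 0.0538 in limma.

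**Figure D3:**
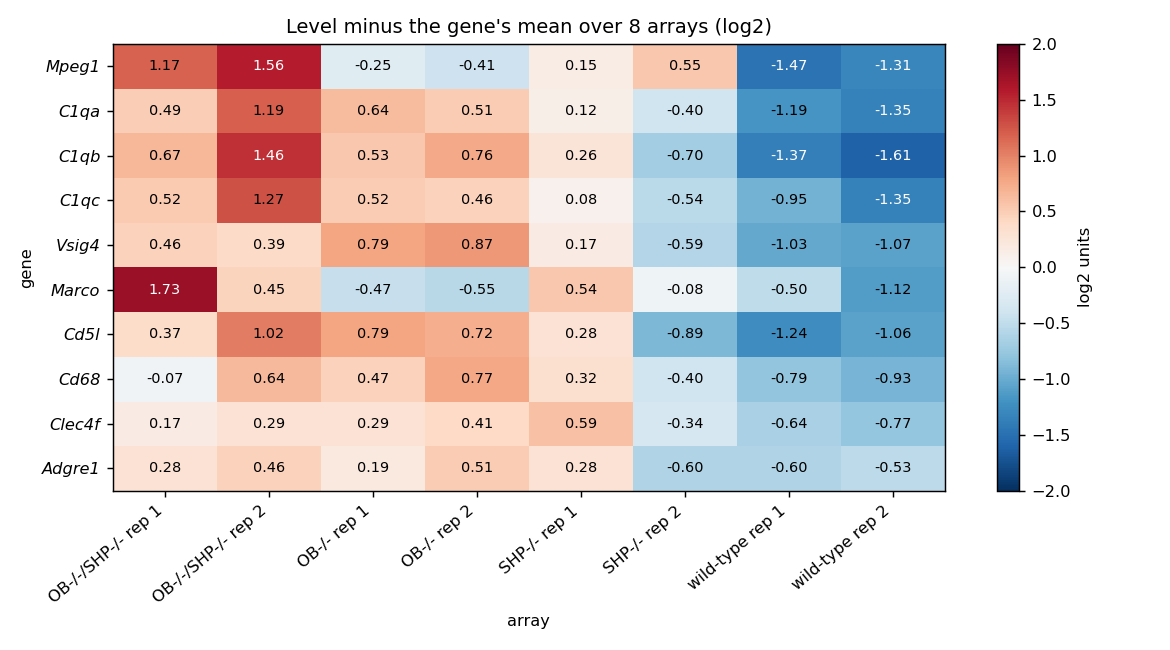
Level of each marker on each array minus the mean of that gene over the 8 arrays, in log2 units. All markers are below their mean on both wild-type arrays, and Mpeg1 and Marco are the markers lower on the OB-/- arrays than on the OB-/-/SHP-/- arrays by over 1 unit between genotype means, 1.70 and 1.60.

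The profiles over the 8 arrays were compared by their root mean square distance after removing each gene's mean, over 6122 genes at or above the median level, with clone and predicted names left out. This is a description, and the arrays share genotypes. Among the markers, C1qa and C1qc were closest, at 0.11, and Clec4f and Adgre1 came next to each other at 0.19, while Marco and Cd5l were far apart at 0.91. Closest to the mean of the C1q chains were Ddit4 at 0.23, Cd5l at 0.24, Scd1 at 0.25, Ctss at 0.26 and Nsdhl at 0.27. Closest to Clec4f among the 6122 genes were Lyz2 at 0.13, then Ecm1, Fcer1g and Csf1r at 0.20 each and Ncoa4 at 0.21. The nearest to Mpeg1 were farther away, with Irf7 at 0.49, Tmem267 and Usp18 at 0.50, and Extl1 and Ddit4 at 0.52, and Marco's nearest were Trp53inp1 at 0.34, Plac8 at 0.42, then Cyp39a1, Ifit3 and Irf7 at 0.46 each.

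Among 25 general phagocyte genes, the median for SHP loss in mice with leptin was 0.40. Of these, 12 had an unadjusted p below 0.05 in limma, against 7.12% of all genes, and none was called. Without SHP-/- replicate 2 the count was 6. Of the 25, 1 rose in OB-/-/SHP-/- against OB-/- livers, where 1.26% of all genes rose. It was Irf8, a transcription factor of the monocyte and macrophage lineage. It read 6.80 and 7.03 in OB-/-/SHP-/- livers, against 5.71 and 5.67 in OB-/- livers, 5.76 and 5.75 in SHP-/- livers and 5.69 and 5.71 in wild-type livers. The OB-/-/SHP-/- arrays stood above all others. Its difference was 1.23 ± 0.13 with an adjusted p of 0.000499 in limma, kept in all 8 fits that leave out 1 array, and its interaction was 1.16 ± 0.19 with an adjusted p of 0.0197 in limma, lost without any of 5 arrays.

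Of these 25, 14 rose in OB-/- against wild-type livers, against 7.58% of all genes, with a median of 0.57. The comparison of OB-/-/SHP-/- with wild-type livers gave 18 that rose, against 7.6% of all genes, and 1 that fell. Both arrays lay above both wild-type arrays for 23 of the 25 in that comparison, against 27.9% of all genes, and below for 2, against 28.3%. Csf1r, the receptor for the macrophage growth factor CSF1, read 9.27 and 9.61 in OB-/-/SHP-/- livers, 9.66 and 9.71 in OB-/- livers, 9.35 and 8.72 in SHP-/- livers, and 8.24 and 8.26 in wild-type livers. It rose in OB-/- against wild-type livers by 1.44 ± 0.20 with an adjusted p of 0.000661 in limma. Both other probe sets of Csf1r differed less, by 0.91 and 0.83, with adjusted p over all probe sets of 0.0214 and 0.0644 in limma. Tyrobp, a signalling adaptor, rose by 1.55, Cybb, a subunit of the phagocyte oxidase, by 1.35, and Axl, a receptor for dying cells, by 1.81. The second probe set of Axl, with a mean of 2.66, differed by 0.10. Counts in OB-/- against wild-type livers fell to 6 without wild-type replicate 2, and in OB-/-/SHP-/- against wild-type livers to 9 without OB-/-/SHP-/- replicate 2 or wild-type replicate 2. The comparison of OB-/-/SHP-/- with SHP-/- livers gave 6 that rose, where 4.95% of all genes rose. It gave 1 that fell, Lcp1, where 5.62% of all genes fell. Most of these calls were lost without OB-/-/SHP-/- replicate 2 or without SHP-/- replicate 2.

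Other Kupffer cell genes were taken from a second list, of which Timd4 was not analysed here. Of 11 measured, 3 rose and 1 fell in OB-/- against wild-type livers, where 7.58% of all genes rose and 9.36% fell. Differences were positive for 9 of the 11, with a median of 0.32. Clec1b, a lectin of platelets and Kupffer cells, rose by 1.47, Il18bp by 0.92 and Fcna by 0.65, the last lost without any 1 of the 4 arrays compared, and C6, a terminal complement component, fell by 3.08. Il18bp, which binds and blocks interleukin-18, was the gene that rose in OB-/-/SHP-/- against OB-/- livers, by 0.91 with an adjusted p of 0.0169 in limma, lost without OB-/-/SHP-/- replicate 2 or either OB-/- array. In that comparison the median of the 11 was -0.15, with 2 positive. OB-/-/SHP-/- livers gave a median of -0.03 against wild-type livers, with 5 positive, and of 0.03 against SHP-/- livers, with 6 positive. Of the 11, 3 rose and 1 fell in OB-/-/SHP-/- against wild-type livers, where 7.6% of all genes rose and 8.25% fell. Against SHP-/- livers 2 rose and 1 fell, where 4.95% of all genes rose and 5.62% fell. Il18bp, which rose, and C6, which fell, kept these calls in all 8 fits that leave out 1 array. The 10 markers and this list were chosen with earlier results of these data known, so setting them side by side is no test. None passed in SHP-/- against wild-type livers in limma, with 0 at an unadjusted p below 0.05, a median of 0.13 and 9 of 11 positive. Among 13 genes of recruited or lipid-associated macrophages, the median in SHP-/- against wild-type livers was 0.01, with 7 positive. In OB-/- against wild-type livers it was 0.07, with 8 positive. Cd9, a tetraspanin, rose in SHP-/- against wild-type livers, where 0.226% of all genes rose. The rise was 1.05 with an adjusted p of 0.028 in limma, lost without any of 5 arrays. In OB-/-/SHP-/- against SHP-/- livers Cd9 was called down, at -0.77 with an adjusted p of 0.0159 in limma. In the same list Lgals3, a galectin, rose by 1.12 in OB-/- and by 1.63 in OB-/-/SHP-/- against wild-type livers. The first of these calls was lost without OB-/- replicate 2 or wild-type replicate 1, with an adjusted p up to 0.0608 in limma. Ccr2, the receptor that brings monocytes in, was at 3.76 to 4.27 on all arrays and was not called.

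Partners of C1q in the complement cascade and regulators of complement moved in both directions. Of 9 measured, 4 had positive differences in OB-/- against wild-type livers and 5 negative ones. The 4 that fell, where 9.36% of all genes fell, were C1ra, which fell by 1.42, C2, which fell by 0.86, Calr, which fell by 0.81, and C1s1, which fell by 0.56. Cd59a, which blocks the last step of complement, rose by 0.83, where 7.58% of all genes rose. Cd59a also rose in OB-/-/SHP-/- against SHP-/- livers, by 0.86, and against wild-type livers, by 0.85. C1ra, C2 and Calr fell in both of these comparisons. They were at -0.96, -0.79 and -0.85 against SHP-/- livers, where 5.62% of all genes fell. Against wild-type livers they were at -0.83, -0.69 and -0.99, where 8.25% of all genes fell. C1ra, C2 and Calr lost their calls against wild-type livers without wild-type replicate 1, and Calr also without OB-/-/SHP-/- replicate 2. Cd59a lost its call in that comparison without wild-type replicate 2. Against SHP-/- livers, Calr lost its call without OB-/-/SHP-/- replicate 2 or SHP-/- replicate 2. In OB-/- against wild-type livers both arrays lay below for 5 of the 9, against 30% of all genes, and above for 3, against 27.5%. Without OB-/- replicate 1 the count of 5 called became 2. C1ra and C1s1 encode the proteases that C1q carries, and C2 is cut by them. None passed in SHP-/- against wild-type livers in limma, with 0 at an unadjusted p below 0.05.

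Marker lists of other liver cells were read on the same arrays. Hepatocyte markers had mean levels of 13.35 and 13.35 in OB-/-/SHP-/-, 13.29 and 13.15 in OB-/-, 13.41 and 13.42 in SHP-/-, and 13.44 and 13.37 in wild-type livers. In OB-/- against wild-type livers the median of these 6 genes was -0.28. Both arrays lay below for 4 of the 6, against 30% of all genes, and 3 had an unadjusted p below 0.05 in limma, against 29.4%. Of the 6, 1 was called down, Cps1 at -0.51, where 9.36% of all genes fell. Of 7 endothelial genes, 4 rose in OB-/- against wild-type livers, among them Lyve1 at 3.31 and Pecam1 at 1.40, where 7.58% of all genes rose. Without OB-/- replicate 2 or wild-type replicate 2 the count was 2. Of 6 stellate cell and fibroblast genes, 2 rose in the same comparison, the collagen genes Col3a1 by 1.49 and Col1a1 by 0.68, the second lost without any 1 of the 4 arrays compared. Col3a1 fell by 1.19 in OB-/-/SHP-/- against OB-/- livers, lost without OB-/-/SHP-/- replicate 1 or either OB-/- array, and Dcn, a matrix proteoglycan, rose by 0.64 in OB-/-/SHP-/- against wild-type livers, lost without OB-/-/SHP-/- replicate 2 or wild-type replicate 2. Pancreatic acinar genes were at a mean of 6.64 and 5.88 in OB-/- livers and 3.69 to 4.40 on the 6 other arrays. Of these 4 genes, 3 rose in OB-/- against wild-type livers, where 7.58% of all genes rose. Of 4 B cell genes 1 was called, Ighm, the heavy chain of IgM. It read 7.39 and 7.58 in OB-/-/SHP-/-, 7.34 and 7.49 in OB-/-, 6.01 and 6.53 in SHP-/-, and 7.53 and 7.51 in wild-type livers, so that the SHP-/- arrays were the low ones. It fell by 1.25 in SHP-/- against wild-type livers, with an adjusted p of 0.0118 in limma, where 0.0968% of all genes fell. That call was lost without either wild-type array. Ighm rose by 1.21 in OB-/-/SHP-/- against SHP-/- livers, with an adjusted p of 0.00154 in limma, where 4.95% of all genes rose. Neither call held for the probe set left when those marked as shared between transcripts were dropped, which gave -0.41 and -0.75. No gene of the T cell, dendritic cell or neutrophil lists was called in any comparison in limma. Of 6 T cell genes, 1 had an unadjusted p below 0.05 in OB-/- against wild-type livers, against 29.4% of all genes. Of 6 neutrophil genes, 2 had one in SHP-/- against wild-type livers, against 7.12% of all genes. The number was also 2 in OB-/-/SHP-/- against SHP-/- livers, against 25.7%, and in OB-/-/SHP-/- against wild-type livers, against 29.5%. It was 1 in OB-/-/SHP-/- against OB-/- livers, against 11.7%. Their part in the marker results was not tested.

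**Figure D4:**
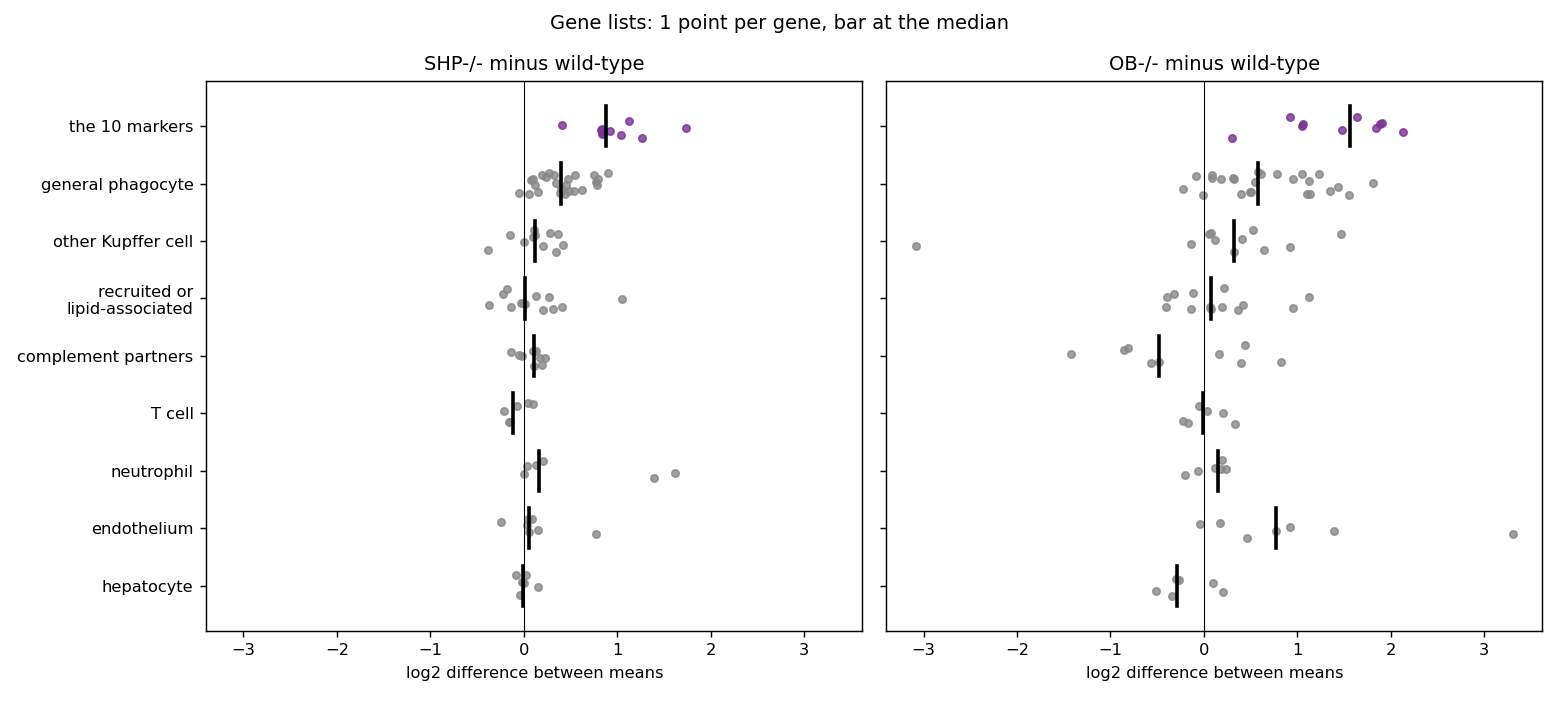
Log2 differences between genotype means for each gene of the marker lists, 1 point per gene, with a bar at the median. In the comparisons shown, the 10 markers have medians of 0.88 in SHP-/- against wild-type and 1.56 in OB-/- against wild-type livers.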

How the data were processed

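Liver expression was measured with an Affymetrix mouse array on 8 arrays, 2 for each of 4 genotypes, with groups and replicate numbers taken from the sample titles. The values are used as the authors deposited them: log2 expression, 1 value per probe set and array, made in R (version 2.15.0 per the submitters' processing notes). How background was corrected and probes summarised is not stated in those notes, nor is the log base, which was read as 2 because values span 2.20 to 14.19. Array medians were 5.45 to 5.56, so no further normalisation was applied.

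Genotype means were estimated for 12393 genes with limma 3.58.1, all 8 arrays together, in R 4.3.3 (4 residual and 7.16 prior degrees of freedom). Tests were two-sided, with Benjamini-Hochberg adjustment over all genes and a threshold of 0.05. Errors are moderated standard errors. The scripts were tested on simulated data. The 10 genes, the other gene lists and the named genes (up to 4 called members of a list by smallest adjusted p) were chosen with earlier results of these data known; Csf1r, Timd4 and Ccr2 were named whatever their values. Lcp1, Lyve1, Pecam1, Col3a1, Col1a1, Dcn, Ighm, Clps, Prss2, S100a8, S100a9, and Calr and Cps1 in OB-/- against wild-type livers were named after their values were seen. Alternatives were quantile normalisation, equal medians, a filter, moderation options, probe set choices, fewer arrays, a replicate block and leaving out each array. Same-numbered arrays had deviations correlating from -0.107 to 0.196, so the numbers were not taken to pair the arrays. The number of arrays limits precision.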

Additional observations from a re-analysis of the deposited data

Results flagged for a closer look

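With all 8 arrays, none of the 10 markers had a difference with SHP loss that was called as unequal between mice without and with leptin, but Irf8 and Ighm did. Of the other lists, the pancreatic acinar genes Clps and Prss2 did too. Their interactions were -3.13 and -2.90, with adjusted p of 0.000474 and 0.00115 in limma. For Irf8 the interaction was 1.16 ± 0.19 (moderated SE) with an adjusted p of 0.0197 in limma. With SHP loss Irf8 differed by 1.23 in OB-/-/SHP-/- against OB-/- livers and by 0.06 in SHP-/- against wild-type livers. Both OB-/-/SHP-/- arrays were above all 6 other arrays. The call was lost without OB-/-/SHP-/- replicate 2, either OB-/- array or either wild-type array, with adjusted p up to 0.115 in limma.

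For Ighm the interaction was 1.32 ± 0.25 with an adjusted p of 0.0431 in limma, and the SHP-/- arrays were the 2 lowest. That call was lost in 7 of the 8 fits that leave out 1 array, with an adjusted p up to 0.219 in limma.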

How the results depend on the processing

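The number of the 10 markers called was the same or close under most alternatives. In SHP-/- against wild-type livers it was 1 and became 2 with a trend in the moderation, and ranged from 0 to 6 over the fits that leave out 1 array. In OB-/-/SHP-/- against OB-/- livers it was 2 and became 1 with quantile normalisation, equal array medians, robust moderation, the mean of probe sets, every probe set by itself, or without both OB-/- replicate 1 and SHP-/- replicate 1, and ranged from 1 to 2 leaving out 1 array. Marco's adjusted p was 0.0562, 0.0552, 0.163, 0.0637, 0.0675 and 0.135 in limma in these 6. In OB-/-/SHP-/- against SHP-/- livers it was 4 and became 1 with only the 4 arrays compared, and 1 to 7 leaving out 1 array. In OB-/-/SHP-/- against wild-type livers it was 10, and 6 to 10 leaving out 1 array. In the interaction it was 0, and 0 to 3. In OB-/- against wild-type livers it was 9, and 7 to 9. The cause of these changes was not tested.

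Of the marker values over all alternatives, 1049 kept their side of the threshold and direction, 41 lost the call, 21 gained it and 19 changed sign, none of them called. Each range that follows is over the 8 fits that leave out 1 array. For SHP-/- against wild-type, Adgre1 ranged from -0.0333 without SHP-/- replicate 1 to 0.85, and was -0.0333 without both arrays named above. For OB-/-/SHP-/- against OB-/-, Adgre1 ranged from -0.14 without OB-/- replicate 1 to 0.18, and was -0.00129 with equal medians and -0.14 without both arrays. There, Cd5l ranged from -0.38 to 0.27 and Cd68 from -0.69 to 0.0245, both highest without OB-/-/SHP-/- replicate 1, and C1qa from -0.0814 without OB-/-/SHP-/- replicate 2 to 0.62. For OB-/- against wild-type, Marco ranged from -0.0074 without wild-type replicate 2 to 0.61. For OB-/-/SHP-/- against SHP-/-, Cd68 ranged from -0.0373 to 0.68 and Clec4f from -0.36 to 0.57, both lowest without SHP-/- replicate 2. For the interaction, Mpeg1 ranged from -0.24 to 0.16, highest without OB-/-/SHP-/- replicate 1 or SHP-/- replicate 2. Marco ranged from -0.0776 without OB-/-/SHP-/- replicate 1 to 1.20, and Adgre1 from -0.83 to 0.0486 without SHP-/- replicate 1.

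Among the named genes of other lists, Ighm in OB-/-/SHP-/- against SHP-/- livers was -0.75 without probe sets marked x or s in the array's names, against 1.21 with them.

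With the replicate number as a block, the counts of genes called were 51, 275, 2147, 1359, 1960 and 77, against 40, 265, 2100, 1311, 1965 and 68 without it, in the order SHP-/- against wild-type, OB-/-/SHP-/- against OB-/-, OB-/- against wild-type, OB-/-/SHP-/- against SHP-/-, OB-/-/SHP-/- against wild-type and the interaction. The block moved no count of markers called by over 1.5 times.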
